A study of Drosophila melanogaster with 12 samples.

Results

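The shift from input to polysomes upon germline loss of Nop60B was measured in fly ovaries by polysome sequencing. For each gene the log2 ratio of polysome to input level in the control was subtracted from the same ratio in Nop60B RNAi, so that a negative shift marks an mRNA with a smaller polysome share than its input level and the control would give. The comparison used 8 of the 12 libraries of the series, 2 input and 2 polysome libraries per genotype, and 9550 of 17023 genes passed the filter on low counts. In Nop60B RNAi ovaries, nosGAL4, which is active in the germline, drove an RNA hairpin against Nop60B. The control, labelled YWT or young control, was UAS-Dcr2;nosGAL4 without a hairpin, so both genotypes carried the driver, and ovaries were taken shortly after eclosion, when they hold mostly germaria and young egg chambers. Each library was made from poly(A) RNA of many pooled ovary pairs, with 20% of the lysate kept as input. The somatic cells were not depleted of Nop60B, and the lysates held whole ovaries. The other 4 libraries come from bam RNAi;hs-bam ovaries (cyst control), which were heat shocked, and they enter below only where they are named.

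A polysome is an mRNA with several ribosomes on it, and it sediments faster in a sucrose gradient the more ribosomes it carries. A long coding sequence has room for more ribosomes than a short one. Nop60B is the fly dyskerin, the pseudouridine synthase of the H/ACA small nucleolar ribonucleoproteins, which modify and help to process ribosomal RNA together with Nop10, Gar1 and NHP2. In the female germline, ribosome production is high in stem cells and their early daughters, and translation of many mRNAs is regulated as cysts enter meiosis.

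Library totals ranged from 8505612 to 21626125 counts. Replicates correlated at 0.979 and 0.956 in YWT input and polysomes and at 0.967 and 0.881 in Nop60B RNAi input and polysomes (Pearson's r across genes, log2 CPM). Of the 6886 genes with a mean of at least 10 CPM (a gene's counts scaled to library size after TMM), 208 differed at least 4-fold between the 2 Nop60B RNAi polysome libraries, against 27 in YWT polysomes. The summed level of 16 germline markers was 4516 to 5069 CPM in YWT input and 678 to 781 CPM in Nop60B RNAi input, and none of these markers was at 0 in all libraries. The 18 muscle markers summed to 7003 to 8124 CPM in YWT input and 41959 to 45385 CPM in Nop60B RNAi input, and the 12 hemocyte markers to 648 to 675 CPM and 2823 to 3010 CPM. In these bulk libraries fewer cells of a type and less RNA per cell cannot be told apart. In polysomes the germline markers summed to 3136 to 3276 CPM in YWT and 657 to 768 CPM in Nop60B RNAi, so that the drop from input to polysomes was seen in YWT and hardly in Nop60B RNAi. The part of the changed tissue makeup in the shift was not tested.

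The question of this comparison was which mRNAs change in polysome share beyond their change in input. A gene was called when the shift reached 2-fold with P below 0.05, unadjusted, in edgeR's quasi-likelihood test. By this rule 485 genes were reduced, 5.08% of the 9550 tested, and 233 were increased, 2.44%. None passed a Benjamini-Hochberg adjusted p of 0.05 (0% of those tested). The lowest adjusted p was 0.0895, 1096 genes had an unadjusted P under 0.05, and DESeq2 placed 83 reduced and 39 increased genes under an adjusted p of 0.05, whereas limma-voom placed 0. The calls below are thus calls at an unadjusted P, and edgeR's adjusted p-values are given for single genes. The median shift over all tested genes was -0.01, but TMM scaling itself sets the bulk of genes near 0. All shifts are therefore relative to other genes, and a loss of polysomes shared by all mRNAs would not show.

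The excess of reductions lay among genes with low levels. Below a mean of 10 CPM, 300 of 2664 tested genes were reduced and 47 increased. From 10 CPM upward the calls were balanced, with 185 of 6886 reduced and 186 increased. The share of reductions among all called genes was 67.5%, and it was 86.1% when libraries were scaled by their totals alone, which moved the median shift of all genes to -0.25. It was 46.8% when genes under 10 CPM were left out before the fit, 51.2% without YWT polysome 2, and 82.6% when all 12 libraries shared one fit. Of the tested genes, 741 had 0 counts in both Nop60B RNAi polysome libraries, against 341 in YWT polysomes, 70 in Nop60B RNAi input and 171 in YWT input. After all libraries were thinned to 8505612 counts, these numbers were 765, 389, 79 and 177. The 741 genes held 258 of the 485 reductions (53.2%). Protein-coding genes were 523 of the 741. The median level of the 741 in Nop60B RNAi input was 1.03 CPM, so for most of them the polysome level is a bound rather than a value.

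**Figure D1:**
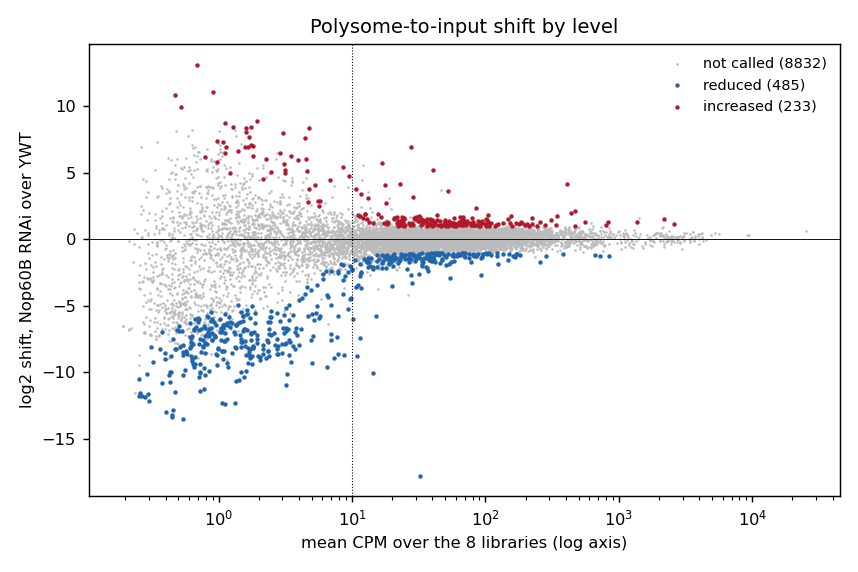
Shift in log2 units (y axis) against the mean level in CPM over 8 libraries (log x axis), 1 point per tested gene, with called genes coloured by direction. Reduced genes outnumber increased genes at low levels (300 against 47 below 10 CPM), and the directions are balanced above (185 against 186).

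In the 185 reduced genes with at least 10 CPM, the median change was larger in polysomes than in input. The input level of 123 of them was within 2-fold of YWT, a share like that of genes without a call (4379 of 6515). Of these 123, 95 had polysome levels at least 2-fold lower, which follows in part from the call. Another 42 were lower at least 2-fold in both input and polysomes, against 665 of the 6515. Across the 185 the median change was -0.28 in input and -1.62 in polysomes on the log2 scale. The median ratio of polysome to input was 0.04 in YWT and -1.30 in Nop60B RNAi. The genes were called on the difference between these ratios, so a gap between them follows from the call. The Nop60B RNAi polysomes were also the group whose replicates differed most.

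The 186 increased genes were more mixed. For 97 of them input was within 2-fold of YWT, and 58 of these had polysome levels at least 2-fold higher. In 50 others the input was at least 2-fold lower in Nop60B RNAi, and for 30 of those the polysome level was within 2-fold of YWT. A further 39 were at least 2-fold higher in both. The median ratio of polysome to input was -0.42 in YWT and 0.85 in Nop60B RNAi, and here too the gap follows from how the genes were called.

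**Figure D2:**
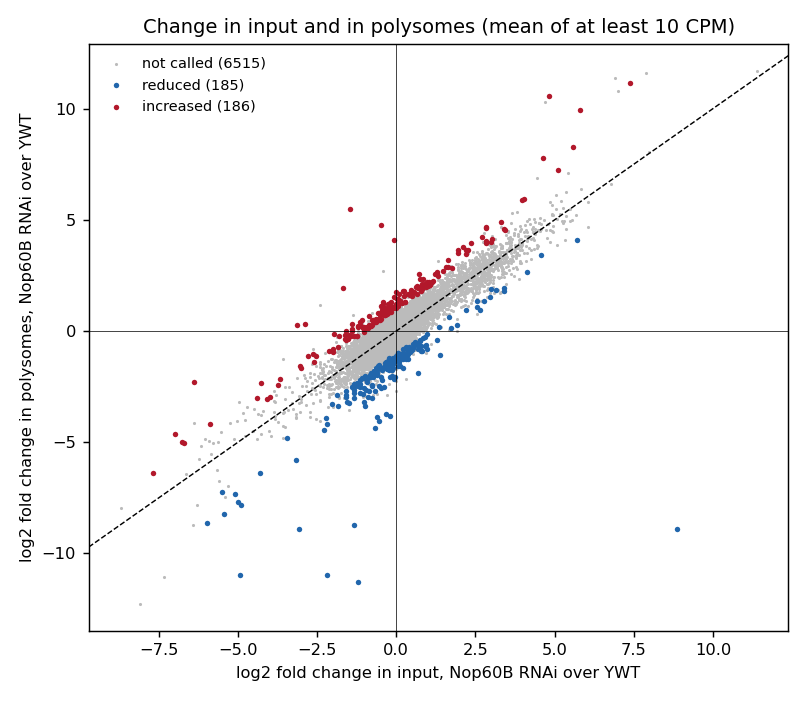
Change in polysomes (y axis) against change in input (x axis), both as log2 Nop60B RNAi over YWT, for genes with a mean of at least 10 CPM. The diagonal marks a shift of 0. The 185 reduced genes lie below it, 123 of them with input changes within 2-fold, as have 4379 of 6515 genes without a call. The 186 increased genes lie above it.

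The calls were unequally spread over coding length. Reduced genes of at least 10 CPM had a median coding length of 691.5 nt (176 protein-coding genes), increased genes of 3126 nt (175), and genes without a call of 1458 nt (6318). Coding length is that of the longest annotated isoform. Tested protein-coding genes were cut into 4 classes of equal size by coding length. The short class (78 to 828 nt) held 101 reduced and 9 increased genes among 1525 of at least 10 CPM, with a median shift of -0.27. The next class (831 to 1389 nt) held 38 and 13 of 1650 with a median of -0.01, and the one after it (1392 to 2229 nt) 20 and 39 of 1648 with a median of 0.09. The long class (2232 to 68850 nt) held 17 and 114 of 1846, with a median of 0.29. Over all levels, including genes below 10 CPM, the short class held 181 reduced and 19 increased genes and the long class 56 and 123. The short class lay lower than the long class in each of 4 classes of mean level. Its median shift was -0.75, -0.42, -0.30 and -0.16 with rising level, and that of the long class was -0.27, 0.17, 0.29 and 0.37.

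The gradient appeared in the Nop60B RNAi polysomes and not in the YWT polysomes. For each polysome library, the log2 ratio to the mean of the 2 inputs of its genotype was taken, with 0.5 CPM added. From the short to the long class the median ratio went from 0.01 to -0.04 in YWT polysome 1 and from 0.04 to -0.05 in YWT polysome 2. It went from -0.47 to 0.32 in Nop60B RNAi polysome 1 and from -0.13 to 0.11 in Nop60B RNAi polysome 2. Both Nop60B RNAi libraries ran the same way, with a smaller span in replicate 2. With 8 length classes, replicate 2 was at -0.36 in the shortest (78 to 552 nt) and between 0.08 and 0.17 in all others, whereas replicate 1 rose from -0.65 to 0.44. Only the shortest mRNAs were thus low in both replicates.

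The short class minus the long class was 0.0449 and 0.0972 in the YWT libraries and -0.788 and -0.241 in the Nop60B RNAi libraries, a mean difference of -0.59. The same measure between the 2 inputs of one genotype was -0.08 in YWT and 0.20 in Nop60B RNAi, so the smaller of the Nop60B RNAi values was close in size to a difference between input replicates. An exact two-sided permutation test over 2 against 2 libraries gave p = 0.333, which is the smallest that this design allows. The cyst control polysomes lay on the other side, at 0.624 and 0.377, with the Nop60B RNAi values at -0.789 and -0.245 on the scale of 12 libraries. Against all 4 control polysome libraries the exact permutation p was 0.0667, again the smallest possible. That test treats both controls as alike, but they differ in genotype and heat shock. On the same scale the YWT libraries lay at 0.0462 and 0.0972, well below the cyst control. In the fits without 1 library the difference between the median shifts of both classes ranged from -0.83 to -0.31.

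Across 6669 protein-coding genes of at least 10 CPM, the shift correlated with coding length at a Spearman's rho of 0.38, and less with the length of the 5′ UTR (0.11), the 3′ UTR (0.13) and coding GC content (0.08). With transcript length it correlated at 0.34, over 6706 genes of at least 10 CPM that include noncoding ones. These are descriptions across genes, which share the same libraries and are not independent. Per library, rho with coding length was -0.03 and -0.09 in the YWT polysomes and 0.43 and 0.13 in the Nop60B RNAi polysomes. Within the short class the shift still correlated with coding length (0.29) but hardly with the 3′ UTR (0.03) or the 5′ UTR (0.00), and within the long class the values were 0.30, 0.08 and 0.06.

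**Figure D3:**
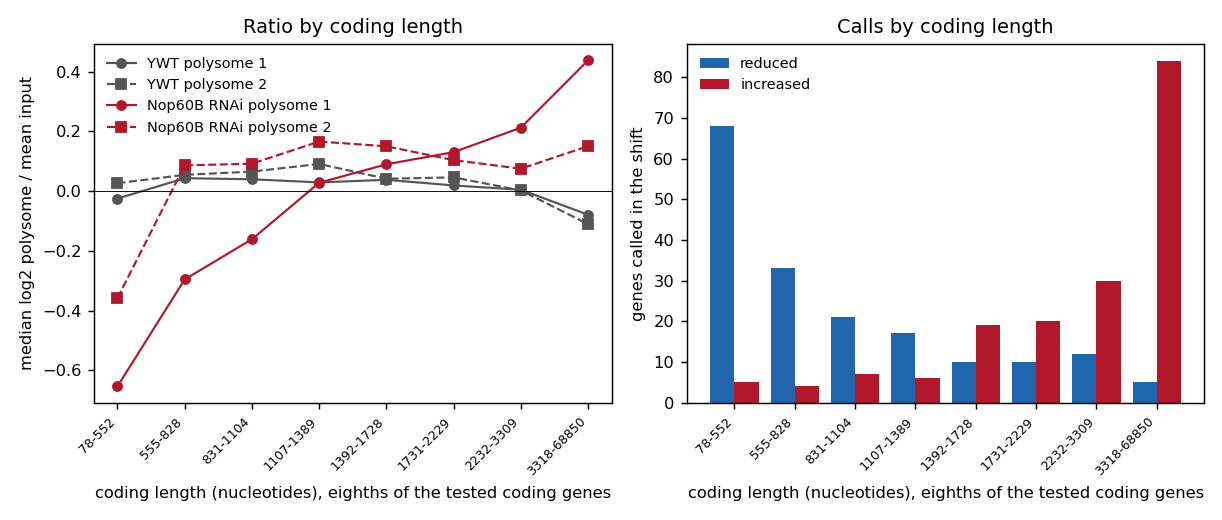
Median log2 ratio of polysome to input (left, y axis) and number of called genes (right) in 8 classes of coding length in nt (x axes), with 1 line per polysome library, for genes of at least 10 CPM. The YWT libraries stay near 0, whereas Nop60B RNAi polysome 1 climbs from -0.65 to 0.44 and polysome 2 is low only in the shortest class (-0.36). Reduced genes fall from 68 to 5 and increased genes rise from 5 to 84 between the outermost classes.

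The ends of the length range carried the largest medians. Apart from cytoplasmic ribosomal proteins, 137 genes of at least 10 CPM had a coding sequence of up to 300 nt, a limit set after the values were seen. Of these, 28 were reduced (20.4%, against 2.64% of all protein-coding genes of at least 10 CPM) and 1 was increased. A shift below 0 was found in 125 of the 137, against 3150 of 6669 protein-coding genes of at least 10 CPM. The median shift of the 137 was -0.67. Their median ratios of polysome to input were -0.22 and -0.13 in the YWT libraries and -0.92 and -0.82 in the Nop60B RNAi libraries, so here both Nop60B RNAi replicates were alike. The reduced ones include subunits of the respiratory chain (ND-MLRQ of complex I, UQCR-11 of complex III), RNA polymerase subunits (Polr2L, Polr2K), the proteasome subunit Sem1, the ubiquitin-like protein Nedd8, the spliceosomal protein SmF, Srp9 of the signal recognition particle and Nop10 of the H/ACA particle. The 10 ribosomal protein genes of up to 300 nt differed from this: 0 were called, their median shift was 0.16, and their median ratios were low in both genotypes (-1.20 and -1.69 in YWT, -1.30 and -1.63 in Nop60B RNAi). The difference between these 10 and the 137 was not tested.

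The coding sequences of 4 short genes whose polysome share fell and of 2 ribosomal protein genes that did not pass the test are printed to show their size, since none exceeds 85 codons. They are from RefSeq on release 6 (dm6), spliced, on the coding strand, with the start and the stop codon in capitals. CG6770 lies at 2L:12045766-12045975 on the minus strand (1 coding exon, 69 codons), Srp9 at 3L:7936475-7936773 on the plus strand (2 coding exons, 77 codons), ND-MLRQ at 3L:23339435-23341519 on the plus strand (3 coding exons, 83 codons) and UQCR-11 at 3L:25120902-25121217 on the plus strand (2 coding exons, 85 codons). RpS29 lies at 3R:9778135-9778785 on the plus strand (3 coding exons, 56 codons) and RpS28b at X:9554710-9554907 on the plus strand (1 coding exon, 65 codons).
CG6770: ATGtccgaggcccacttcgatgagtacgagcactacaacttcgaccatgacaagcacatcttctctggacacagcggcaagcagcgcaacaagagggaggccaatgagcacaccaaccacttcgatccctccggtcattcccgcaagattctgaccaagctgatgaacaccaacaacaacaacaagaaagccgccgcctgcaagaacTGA
Srp9: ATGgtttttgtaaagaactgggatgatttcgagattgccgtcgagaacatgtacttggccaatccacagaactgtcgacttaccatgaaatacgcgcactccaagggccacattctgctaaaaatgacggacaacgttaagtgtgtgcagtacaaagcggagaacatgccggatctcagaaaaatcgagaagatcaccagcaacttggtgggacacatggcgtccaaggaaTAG
ND-MLRQ: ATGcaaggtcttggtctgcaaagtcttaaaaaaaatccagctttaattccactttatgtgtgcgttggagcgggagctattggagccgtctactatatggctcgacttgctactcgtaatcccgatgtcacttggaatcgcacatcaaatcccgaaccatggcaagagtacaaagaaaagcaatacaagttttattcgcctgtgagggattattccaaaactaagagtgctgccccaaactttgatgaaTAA
UQCR-11: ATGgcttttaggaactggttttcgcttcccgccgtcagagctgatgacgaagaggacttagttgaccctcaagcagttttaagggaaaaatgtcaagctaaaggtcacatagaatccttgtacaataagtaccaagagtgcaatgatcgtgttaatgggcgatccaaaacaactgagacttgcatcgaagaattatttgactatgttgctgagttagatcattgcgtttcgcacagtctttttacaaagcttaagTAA
RpS29: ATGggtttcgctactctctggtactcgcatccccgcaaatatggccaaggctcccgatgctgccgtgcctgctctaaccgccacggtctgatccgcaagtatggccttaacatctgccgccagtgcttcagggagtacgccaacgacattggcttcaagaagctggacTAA
RpS28b: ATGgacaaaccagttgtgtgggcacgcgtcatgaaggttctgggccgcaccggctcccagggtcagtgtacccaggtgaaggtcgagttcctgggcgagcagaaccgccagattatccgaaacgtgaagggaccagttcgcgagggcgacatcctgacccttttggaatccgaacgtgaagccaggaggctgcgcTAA

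CG6770 had 851 and 939 CPM in YWT input, 1059 and 933 in YWT polysomes, 947 and 1083 in Nop60B RNAi input, and 457 and 504 in Nop60B RNAi polysomes. Only the Nop60B RNAi polysomes stood apart, and the shift was -1.23 ± 0.25 (SE; edgeR adjusted p = 0.292). Srp9, which binds the RNA of the signal recognition particle in mammals, had 114 and 115 CPM in YWT input, 77.1 and 106 in YWT polysomes, 90.7 and 89.8 in Nop60B RNAi input and 30.0 and 32.7 in Nop60B RNAi polysomes. Its shift was -1.20 ± 0.29 (adjusted p = 0.316), with no overlap between the polysome libraries of the genotypes, and it was -0.96 and no longer called without YWT polysome 2. ND-MLRQ had 393 and 506 CPM, 569 and 383, 361 and 434, and 178 and 204 in the same order, a shift of -1.14 ± 0.33 (adjusted p = 0.320). UQCR-11 had 176 and 228 CPM, 240.2 and 173, 156 and 223, and 85.0 and 94.0, a shift of -1.11 ± 0.34 (adjusted p = 0.328). Both respiratory genes were lower in the Nop60B RNAi polysomes than in every other library. The call ended for ND-MLRQ without YWT polysome 1 (-0.95) and for UQCR-11 without YWT polysome 1 (-0.99) or Nop60B RNAi input 2 (-0.84).

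The short ribosomal protein mRNAs had lower levels in polysomes than in input in both genotypes. RpS29, a small subunit protein, had 6051 and 6101 CPM in YWT input, 2536 and 1503 in YWT polysomes, 5033 and 4560 in Nop60B RNAi input and 2523 and 1295 in Nop60B RNAi polysomes. RpS28b, also of the small subunit, had 4830 and 5799 CPM, 1642 and 1260, 3625 and 3014, and 1197 and 836. The polysome libraries of the 2 genotypes overlapped for RpS29, and the shifts were 0.26 ± 0.48 and 0.17 ± 0.35 (adjusted p = 0.891 and 0.913).

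At the other end, 229 genes of at least 10 CPM had coding sequences over 6000 nt, a limit also set after the values were seen. Of these 45 were increased (19.7%, against 2.62% of all protein-coding genes of at least 10 CPM) and 1 was reduced. A shift above 0 was found in 208 of the 229, against 3519 of 6669 protein-coding genes of at least 10 CPM. The median shift of the 229 was 0.68 (0.37 without Nop60B RNAi polysome 1). Their median ratios were -0.17 and -0.20 in YWT polysomes and 0.75 and 0.22 in Nop60B RNAi polysomes. The increased ones include the dynein heavy chain Dhc64C, the giant ubiquitin ligases HUWE1 and poe, the spectraplakin shot, the nuclear pore proteins Nup358 and Nup205, the splicing factor Prp8 and the muscle proteins sls and Msp300.

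Dhc64C, the motor subunit of cytoplasmic dynein, had 56.2 and 65.8 CPM in YWT input, 46.6 and 72.9 in YWT polysomes, 72.2 and 73.1 in Nop60B RNAi input, and 242 and 178 in Nop60B RNAi polysomes. The Nop60B RNAi polysomes were more than 2-fold above all other libraries, with a shift of 1.56 ± 0.36 (adjusted p = 0.316). poe, the fly UBR4, had 146 and 149.7 CPM, 144 and 129, 272 and 260.1, and 861 and 501 in the same order (1.48 ± 0.34; adjusted p = 0.316). For sls, a titin-like protein of muscle, the Nop60B RNAi polysome replicates differed, at 668 and 232 CPM with 358 and 323 CPM in input, and its shift of 1.61 ± 0.56 (adjusted p = 0.365) was no longer called in 5 of the 8 fits without 1 library, with 0.65 without Nop60B RNAi polysome 1.

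Among the 12 reduced genes with the lowest P at a mean of at least 10 CPM, all of them protein-coding, 9 lay in the short class of coding length. msd1, a subunit of the augmin complex that nucleates microtubules in the spindle, had 20.7 and 29.4 CPM in YWT input, 19.6 and 23.2 in YWT polysomes and 13.0 and 8.52 in Nop60B RNAi input. It had 0 counts in both Nop60B RNAi polysome libraries. Its polysome-to-input ratio was at least 49.3-fold lower in Nop60B RNAi, with 3 counts per library as the floor (adjusted p = 0.0895). The gene lies at 3L:1331744-1332326 and shares its locus with msd5 on the opposite strand, and whether counting used strand is not given in the sources used here.

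Targ3 had 20.1 and 22.6 CPM in YWT input, 14.2 and 20.6 in YWT polysomes, 4.37 and 5.00 in Nop60B RNAi input and 0 counts in both Nop60B RNAi polysomes, a ratio at least 20.4-fold lower (adjusted p = 0.131). CG2617 had 15.3 and 18.3 CPM in YWT polysomes and 0 and 1 count in Nop60B RNAi polysomes. Its input was 21.7 and 19.9 CPM in YWT and 7.38 and 9.23 in Nop60B RNAi, so the polysomes lost far more than the input did (adjusted p = 0.123). alpha-Est5, a carboxylesterase, had 34.9 and 32.2 CPM in YWT polysomes and 0 and 2 counts in Nop60B RNAi polysomes, with 24.8 and 22.9 CPM in YWT input and 3.09 and 2.54 in Nop60B RNAi input (adjusted p = 0.146). The polysome level of CG2617 was 548-fold higher in YWT (95% counting interval 98.0 to 21660) and that of alpha-Est5 535-fold higher (148 to 4420). Targ3 overlaps park and Targ1, and CG2617 overlaps Hr38, on the opposite strand. All 4 of these genes were low in both Nop60B RNAi polysome libraries and well above 10 CPM in both YWT polysome libraries.

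CG9922, CG31800, Roc2 and mge kept levels above 10 CPM in all libraries. CG9922 had 177 and 190.3 CPM in YWT input, 139.9 and 183 in YWT polysomes, 125 and 124 in Nop60B RNAi input and 24.1 and 35.0 in Nop60B RNAi polysomes (shift -1.89 ± 0.31; adjusted p = 0.181). CG31800 had 65.2 and 79.8 CPM, a mean of 72.5, 64.2 and 66.9, and 21.9 and 20.8 CPM (-1.62 ± 0.28; adjusted p = 0.206). Its input did not move by more than the replicates differed, and only the Nop60B RNAi polysomes were low. Roc2, the RING-box subunit of cullin ubiquitin ligases, had 64.2 and 75.3, 62.5 and 70.1, 60.0 and 61.8, and 13.6 and 18.5 CPM (-1.85 ± 0.33; adjusted p = 0.206). mge, the fly Tom22 of the mitochondrial import pore, had 321 and 385, 462 and 499.9, 198 and 183, and 116 and 107 CPM (-1.22 ± 0.24; adjusted p = 0.252). Its polysome level exceeded input in YWT and fell below input in Nop60B RNAi. The group is completed by CG5611 (-3.40), which had a mean of 1.46 CPM in Nop60B RNAi polysomes, CG6770, CG32278 (-1.40) and Cph, a BCL11-type transcription factor whose input was already 23.8 and 21.7 CPM in YWT against 0.904 and 0.564 in Nop60B RNAi. With 0 counts in both Nop60B RNAi polysomes, the ratio for Cph was at least 2.96-fold lower. CG9922 overlaps CG3061, CG31800 overlaps mib2 and CG5611 overlaps Tusp on the opposite strand, and Roc2 holds other genes. These 12 calls held in each fit without 1 library.

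Among the largest folds was AstA-R1, the allatostatin A receptor, which had 245 and 3.59 CPM in the Nop60B RNAi inputs, 0 and 8.04 in the YWT polysomes and 0 counts in both Nop60B RNAi polysomes. Its value therefore came from single libraries, and the call ended without YWT polysome 2.

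Of the 12 increased genes with the lowest P, 10 were protein-coding, with 3 in the long class, 1 in the short class and a median coding length of 1786.5 nt. CG13185, the fly midasin (Rea1 in yeast), an ATPase that acts on large-subunit precursors, has a coding sequence of 16581 nt. It had 185 and 198 CPM in YWT input, 88.7 and 101 in YWT polysomes, 47.6 and 49.7 in Nop60B RNAi input and 77.8 and 94.6 in Nop60B RNAi polysomes. Polysomes held less than input in YWT and more than input in Nop60B RNAi, so that the polysome level hardly differed between genotypes while input was lower (log2 change -1.98) (shift 1.83 ± 0.26; adjusted p = 0.131). CycB, the mitotic cyclin B, showed the same pattern with 1105 and 1005, 449 and 639, 56.6 and 52.1, and 101 and 116 CPM (1.95 ± 0.29; adjusted p = 0.146). Its polysome level was still far lower in Nop60B RNAi than in YWT.

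Kdsr, a reductase of sphingolipid synthesis, had 41.1 and 42.6 CPM in YWT input, 35.3 and 33.4 in YWT polysomes, 39.6 and 49.0 in Nop60B RNAi input and 117 and 103 in Nop60B RNAi polysomes (1.60 ± 0.29; adjusted p = 0.249). Here input was alike and the Nop60B RNAi polysomes alone were high. udt had 48.8 and 46.0, 25.7 and 35.5, 77.5 and 80.7, and 140.4 and 174 CPM (1.62 ± 0.31; adjusted p = 0.249). stol, the alpha2delta subunit of calcium channels, had at most 0.674 CPM in any YWT library, 14.8 and 18.7 CPM in Nop60B RNAi input and 53.4 and 44.9 in Nop60B RNAi polysomes, so its YWT ratio has no firm value. It also overlaps several other genes. Vm34Ca, a vitelline membrane protein, had 25.8 and 25.3 CPM in YWT input, 43.0 and 32.7 in YWT polysomes, 4.90 and 2.11 in Nop60B RNAi input and 64.9 and 30.4 in Nop60B RNAi polysomes (3.20 ± 0.66; adjusted p = 0.292). Its polysome level overlapped between genotypes, and the input was what differed. The others were CG11674 (2.36), the synaptonemal complex protein c(2)M (3.39), the adhesion protein sdk (1.39) and out, a transporter of the monocarboxylate family (1.37).

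Both noncoding genes of this group are ribosome-related. RNaseMRP:RNA, the RNA of the enzyme that cuts precursor ribosomal RNA, had 74.6 and 98.7 CPM in YWT input, 0.643 and 0.377 in YWT polysomes, 90.3 and 33.2 in Nop60B RNAi input and 22.8 and 4.43 in Nop60B RNAi polysomes (5.24 ± 1.10; adjusted p = 0.295). The ribosomal RNA pseudogene 28SrRNA-Psi:CR41609 had 16.7 and 24.9, 2.63 and 1.01, 10.5 and 4.65, and 146 and 16.3 CPM (6.96 ± 1.33; adjusted p = 0.249). The copy 18SrRNA-Psi:CR41602 had 196 and 1103, 26.2 and 14.2, 698 and 541, and 109 and 568 CPM. In all 3 the Nop60B RNAi polysomes exceeded the YWT polysomes, but replicates differed severalfold, the libraries were poly(A)-selected, and reads of ribosomal RNA copies cannot be assigned to one copy with certainty.

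**Figure D4:**
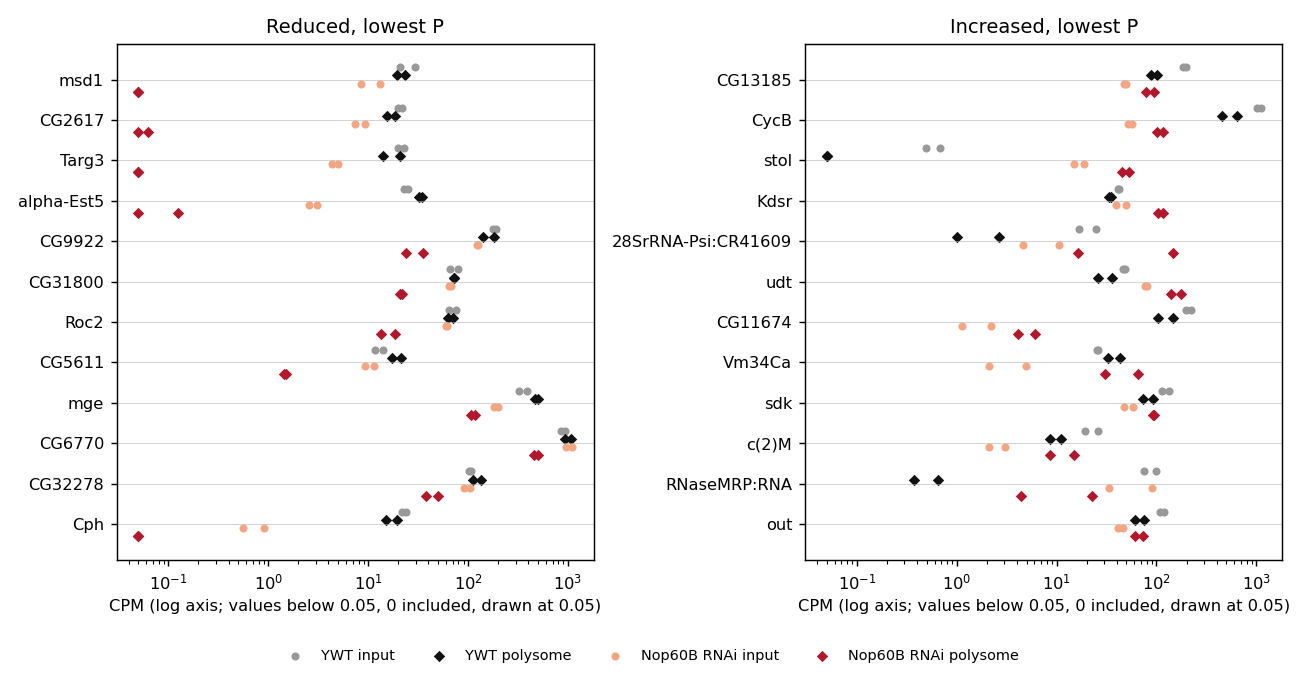
Level in CPM (log x axis, values below 0.05 drawn at 0.05) of the 12 reduced (left) and 12 increased (right) genes with the lowest P, with 1 mark per library in each of the 8 libraries, coloured by group. Reduced genes such as CG9922 and Roc2 are low only in Nop60B RNAi polysomes (24.1 and 35.0, 13.6 and 18.5 CPM), whereas CycB and CG13185 are lowest in Nop60B RNAi input.

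Few genes of the translation machinery were called. Here and in the lists below, counts stand against 5.08% reduced and 2.44% increased among all genes. Among protein-coding genes of at least 10 CPM these shares were 2.64% and 2.62%. The latter are the closer background for lists whose genes mostly reach 10 CPM, such as the ribosomal proteins (79 of 82). Of 82 cytoplasmic ribosomal proteins tested, 2 were reduced and 0 increased, with a median shift of 0.10 (from -0.12 without Nop60B RNAi input 2 to 0.38 without Nop60B RNAi input 1) and median ratios of -0.73 and -1.11 in YWT and -0.73 and -0.96 in Nop60B RNAi. The 2 were RpS19b (-1.18), a germline-enriched form of RpS19, and RpL22-like (-2.25), a paralogue of RpL22. RpS19b had 24.9 and 25.7 CPM in Nop60B RNAi input and 12.8 and 12.5 in its polysomes, against 10.7 and 16.3 CPM and 17.2 and 13.4 CPM in YWT. Each of these calls ended in 4 of the 8 fits without 1 library, the shifts going to -0.99 without YWT input 1 for RpS19b and to -1.45 without YWT polysome 1 for RpL22-like. Of 47 translation factors and 31 aminoacyl-tRNA synthetases 0 were called, with medians of 0.16 and 0.24. Among 70 mitochondrial ribosomal proteins 3 were reduced, mRpS33 (-3.28), mRpL27 (-1.02) and mRpL34 (-2.33), with coding sequences of 342, 417 and 246 nt, and 0 were increased, with a median of -0.10. The call of each ended in 3 of the 8 fits without 1 library.

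Of 47 listed ribosome biogenesis genes 2 were reduced, ais and Nop10, and 0 increased (median -0.02). The list does not hold the midasin gene CG13185, which was increased (1.83). The first, ais, a DEAD-box helicase, had 119.7 and 134 CPM in YWT input, 177 and 136 in YWT polysomes, 39.4 and 45.3 in Nop60B RNAi input and 32.3 and 15.7 in Nop60B RNAi polysomes (-1.13 ± 0.44; adjusted p = 0.397). Its call ended in 4 of the 8 fits without 1 library and the shift was -0.70 without Nop60B RNAi polysome 2. Nop60B itself had 1554 and 1777 CPM in YWT input, 1917 and 1636 in YWT polysomes, 442 and 455 in Nop60B RNAi input and 476 and 476 in Nop60B RNAi polysomes. The difference between genotypes was alike in input and polysomes, with a shift of -0.01 ± 0.25 (adjusted p = 1.00), although the locus also holds small nucleolar RNA genes. Its partner Nop10 had a mean of 12.5 ± 6.00 (SD, n = 2) CPM in YWT input, 24.5 ± 3.49 in YWT polysomes, 24.2 ± 4.77 in Nop60B RNAi input and 14.1 ± 3.42 in Nop60B RNAi polysomes (-1.75 ± 0.60; adjusted p = 0.354), a reduction that was no longer called without Nop60B RNAi input 2 (-1.54), YWT input 1 (-1.42) or YWT polysome 2 (-1.60). Gar1 (-0.44 ± 0.33) and NHP2 (-0.61 ± 0.41) were not called.

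The lists of energy supply and protein turnover held few calls. Of 68 oxidative phosphorylation genes 2 were reduced, ND-MLRQ and UQCR-11, and 0 increased (median -0.09). None of the 35 proteasome subunits of the list (median 0.25), the 11 listed mitochondrial import and carrier genes (-0.33) and 12 glycolytic enzymes (0.38) was called, by edgeR at the call used here. The lists do not hold Sem1 (-1.27) and mge (-1.22), which belong to the proteasome and to mitochondrial import and were reduced. All 12 glycolytic enzymes had a shift above 0, against 4713 of the 9550 tested genes. Their median level was 227 CPM, and tested genes from 80.0 CPM upward had a median shift of 0.14. The median shift of the glycolytic list ran from 0.19 without Nop60B RNAi input 2 to 0.71 without Nop60B RNAi input 1.

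In the mitotic list, 3 of 63 genes were reduced (msd1, Bub1 and asl), 4.76% against 5.08% of all genes. Of the 63, 60 were of at least 10 CPM, among them the 3 reduced ones. The share among protein-coding genes of that level was 2.64%. Another 4 were increased (6.35%, against 2.44%), and the median shift of the list was 0.19. The increased ones were CycB, CycB3, Cdk4 and shtd. shtd, the largest subunit of the anaphase-promoting complex, had 73.6 and 63.2 CPM in YWT input, 89.7 and 72.5 in YWT polysomes, 32.9 and 30.2 in Nop60B RNAi input and 101 and 89.1 in Nop60B RNAi polysomes (1.34 ± 0.29; adjusted p = 0.308). Its input was lower in Nop60B RNAi while its polysome levels overlapped. CycB3, a cyclin with a part in meiosis and mitosis, had 74.7 and 93.1, 81.1 and 69.5, 19.1 and 19.0, and 43.9 and 36.7 CPM (1.24 ± 0.31; adjusted p = 0.319), and without YWT input 2 its shift was 0.98 and no longer called. Cdk4 (1.03) was close to the limit and lost its call in 5 of the 8 fits without 1 library, with 0.88 without YWT input 1.

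Of 41 meiotic genes 4 were reduced (9.76%, against 5.08% of all genes) and 2 increased (4.88%, against 2.44%). Their median shift was 0.19, and it ranged from 0.08 without YWT polysome 1 to 0.29 without Nop60B RNAi polysome 1. Among the 28 of at least 10 CPM, 1 was reduced and 2 were increased. The reduced ones were narya, mei-38, mei-W68 (the Spo11 endonuclease) and spn-B, and the increased ones c(2)M and gwl. The call of gwl (1.03) ended in 5 of the 8 fits without 1 library, with 0.63 without YWT polysome 1. narya, a RING protein of meiotic recombination, had 14.5 and 17.9 CPM in YWT input, 25.5 and 18.3 in YWT polysomes, 0.753 and 0.564 in Nop60B RNAi input and 0 and 1 count in Nop60B RNAi polysomes, so most of its loss was already in the input. mei-38 had 30.4 and 35.3, 27.2 and 42.2, 10.6 and 7.61, and 4.48 and 2.31 CPM (-1.50 ± 0.59; adjusted p = 0.398), and its call ended in 4 of the 8 fits without 1 library, with -1.15 without YWT polysome 2. In the other direction c(2)M, a lateral element protein of the synaptonemal complex, had 25.9 and 19.3, 8.59 and 11.1, 3.01 and 2.11, and 8.52 and 15.0 CPM. c(3)G, the transverse filament protein of the same complex, had 189.5 and 180.5, 133 and 159.9, 50.7 and 49.0, and 26.9 and 24.6 CPM. Its shift of -0.61 ± 0.25 (adjusted p = 0.411) was below 2-fold, with polysomes lower than input in both genotypes. cona, the central region protein, had a shift of -1.21 ± 0.61 (adjusted p = 0.481) and was not called. The proteins of 1 complex thus had shifts of both signs.

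Of the regulators of early germline differentiation Rbfox1, bru1, bam, egl and Atx2, 0 were called. Rbfox1 had 80.4 and 81.7 CPM in YWT input, 90.5 and 43.7 in YWT polysomes, 104 and 143 in Nop60B RNAi input and 111 and 95.7 in Nop60B RNAi polysomes (0.01 ± 0.45; adjusted p = 1.00). bru1, a translational repressor, had 1030 and 1124, 1124 and 615, 40.0 and 38.5, and 34.8 and 31.4 CPM (0.06 ± 0.37; adjusted p = 0.988). Its loss was as large in input as in polysomes. For both genes the 2 YWT polysome libraries differed from each other, and leaving out 1 of them moved the shift from -0.42 to 0.50 for Rbfox1 and from -0.31 to 0.44 for bru1. The shift of bam was -0.12 ± 1.37 and ran from -5.18 without Nop60B RNAi polysome 2 to 0.85 without Nop60B RNAi polysome 1, so its direction is not settled. Those of egl and Atx2 were -0.12 ± 0.29 and 0.45 ± 0.31. Among 41 germline translational regulators 0 were reduced and 2 increased, otu and swa (median 0.01). The call of swa (1.79) ended in 5 of the 8 fits without 1 library, with 1.16 without Nop60B RNAi polysome 1. Of 32 piRNA pathway genes 1 was reduced, moon (-1.69), a factor for transcription of piRNA clusters, which lost its call in 4 of the 8 fits without 1 library, with -1.25 without YWT polysome 2.

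The 16 germline markers had a median shift of 0.33 with 0 reduced and 3 increased (18.8%, against 2.44% of all genes). Their median ratios were -0.11 and -0.25 in YWT and 0.08 and 0.11 in Nop60B RNAi. The 3 increased were dhd, otu and pgc. dhd, a thioredoxin of the female germline, had 912 and 865 CPM in YWT input, 455 and 438 in YWT polysomes, 18.3 and 11.6 in Nop60B RNAi input and a mean of 24.8 ± 10.9 (SD, n = 2) in Nop60B RNAi polysomes (1.72 ± 0.43; adjusted p = 0.319). dhd is short (324 nt of coding sequence), so not every short mRNA was reduced. otu, needed in germline cyst formation, had 131 and 114, 121 and 119, 6.85 and 4.79, and 18.2 and 11.6 CPM (1.38 ± 0.38; adjusted p = 0.320). BigH1, the germline linker histone and the one histone called among 5, was reduced, with 127 and 122, 91.4 and 82.8, 3.46 and 4.79, and 0.0622 and 0.686 CPM (-2.92 ± 0.68; adjusted p = 0.316). These 3 were far lower in Nop60B RNAi than in YWT in both fractions. pgc, which blocks transcription in germ cells, had a shift of 1.64 ± 0.44.

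Genes of the eggshell and yolk uptake were called more often than the 2.44% of all genes. Of 20 tested, 8 were increased and 0 reduced, with a median shift of 1.71 (2.24 with a floor of 3 counts). Most of them had low levels, and among the 8 of at least 10 CPM the median was 1.05 and 3 were increased. Their median ratios were -0.04 and 0.13 in YWT and 2.21 and 1.71 in Nop60B RNAi. The 8 were the yolk receptor yl, the vitelline membrane genes Vm26Ac, Vm34Ca and Vml, the chorion genes Cp16, Cp36 and Cp38, and dec. Cp38 had 0.125 and 1.08 CPM in YWT input, 0.117 and 0.168 in YWT polysomes, 7.53 and 2.11 in Nop60B RNAi input and 26.8 and 38.1 in Nop60B RNAi polysomes. dec had 30.3 and 29.7, 28.5 and 27.6, 65.5 and 49.0, and 106 and 114 CPM (1.04 ± 0.31; adjusted p = 0.324). The summed level of 22 such genes was 197 to 276 CPM in Nop60B RNAi input and 519 to 906 CPM in its polysomes, against 1537 to 1747 and 1575 to 1859 CPM in YWT. dec lost its call in 5 of the 8 fits without 1 library (0.84 without Nop60B RNAi input 2), yl in 3 (0.89 without Nop60B RNAi input 2) and Cp38 without YWT input 2 (2.45).

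Basement membrane genes were also called more often than the background. Of 15 tested, 5 were increased and 1 reduced, with a median shift of 1.05 (0.63 without Nop60B RNAi polysome 1) and median ratios of -0.07 and -0.01 in YWT and 1.05 and 0.50 in Nop60B RNAi. Col4a1, a collagen IV chain, had 656 and 818 CPM in YWT input, 634 and 488 in YWT polysomes, 2546 and 2053 in Nop60B RNAi input and 6717 and 3584 in Nop60B RNAi polysomes (1.56 ± 0.43; adjusted p = 0.320). vkg, the other collagen IV chain, had 596 and 650.0, 529 and 431, 1734 and 1308, and 3536 and 2096 CPM (1.26 ± 0.38; adjusted p = 0.324). LanB2, a laminin chain, had 303 and 271, 299 and 219.9, 815 and 877, and 2438 and 1380 CPM (1.32 ± 0.39; adjusted p = 0.324). In all 3 the input was already higher in Nop60B RNAi and the polysomes were higher still. Ppn, papilin, had 8544 and 4604 CPM in Nop60B RNAi polysomes and 3041 and 2766 in its input (1.14 ± 0.41; adjusted p = 0.376). Nop60B RNAi polysome 1 was the higher replicate for all 4, and without it the shifts of vkg (0.84), LanB2 (0.85) and Ppn (0.63) were no longer called. For Ppn the call ended in 4 of the 8 fits without 1 library. The proteins are long, with coding sequences of 5340, 5823, 4920 and 8697 nt. The 12 hemocyte markers summed to 2823 to 3010 CPM in Nop60B RNAi input and 3949 to 4637 in its polysomes, against 648 to 675 and 584 to 743 CPM in YWT, and their part in the gain was not tested.

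Of 26 nucleoporins 3 were increased (11.5%, against 2.44% of all genes) and 0 reduced, with a median of 0.30 (0.13 without YWT polysome 1) and ratios of 0.08 and 0.19 in YWT and 0.45 and 0.44 in Nop60B RNAi. Nup205, of the inner ring, had 131 and 132 CPM in YWT input, 191 and 171 in YWT polysomes, 48.7 and 39.1 in Nop60B RNAi input and 144 and 129 in Nop60B RNAi polysomes (1.18 ± 0.26; adjusted p = 0.309). Its call held in each fit without 1 library, and the input was the lower of the 2 fractions in both genotypes. Those of Nup358 (1.02) and Elys (1.01) each ended in 5 of 8, with 0.73 and 0.62 without Nop60B RNAi polysome 1. The 3 have coding sequences of 6273, 8157 and 6336 nt. The list does not hold the nuclear pore gene Mgtor (7041 nt), which was increased (1.14).

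Stress and growth control gave few calls. Among 22 genes of the integrated stress response 1 was reduced, crc, the fly ATF4, whose translation depends on upstream reading frames. It had 686 and 685 CPM in YWT input, 342 and 489 in YWT polysomes, 1126 and 1328 in Nop60B RNAi input and 421 and 242 in Nop60B RNAi polysomes (-1.17 ± 0.39; adjusted p = 0.353). The input was higher and the polysomes were not. Its call ended without Nop60B RNAi input 2 (-1.05), Nop60B RNAi polysome 2 (-0.83) or YWT polysome 2 (-0.89). Among 28 TORC1 pathway genes 2 were reduced and 1 increased: Lst8 (-1.01), a core subunit, REPTOR-BP (-1.22), the partner of a transcription factor that TORC1 keeps inactive, and in the other direction raptor (1.29), the substrate-binding subunit. raptor had 11.5 and 13.7, 10.1 and 10.7, 11.8 and 8.73, and 21.8 and 19.6 CPM, with a coding sequence of 4866 nt against 942 nt for Lst8 and 357 nt for REPTOR-BP. These calls ended in 3 (Lst8), 4 (REPTOR-BP) and 6 (raptor) of the 8 fits without 1 library, with -0.71 without Nop60B RNAi input 2, -0.79 without Nop60B RNAi polysome 1 and 1.06 without YWT input 2. None of 16 heat shock genes was called (median 0.29).

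Other lists held at most 1 call in a direction. Among 26 genes of the ER translocon, signal recognition and glycosylation Srp9 was the reduced gene, against a list median of 0.35. Among 36 DNA replication genes PolA1 (1.45), the catalytic subunit of polymerase alpha, was increased, and among 11 fusome and ring canal genes shot (1.26), which was no longer called without Nop60B RNAi polysome 1 (0.93). Somatic markers gave single calls as well. Of 12 hemocyte markers NimC2 (2.70) was increased. It had at most 0.873 CPM in any YWT library and 0 in one of them, so its YWT ratio has no firm value. Its call ended in 3 of the 8 fits without 1 library, and its shift ran from 1.79 without YWT polysome 1 to 6.43 without YWT polysome 2. Of 18 muscle markers sls was increased, of 10 fat body markers the larval serum protein Lsp2 (6.03), and of 14 escort and follicle markers ct (1.28; 0.92 and no longer called without YWT input 2) was increased and the JAK-STAT ligand upd1 reduced. Lsp2 had 26.8 and 2.37 CPM in the Nop60B RNAi polysomes, at most 2.18 CPM in any other library, and lost its call without Nop60B RNAi polysome 1 (3.42). Tubulins, actins and innexins (6 of each) gave 0 calls.

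**Figure D5:**
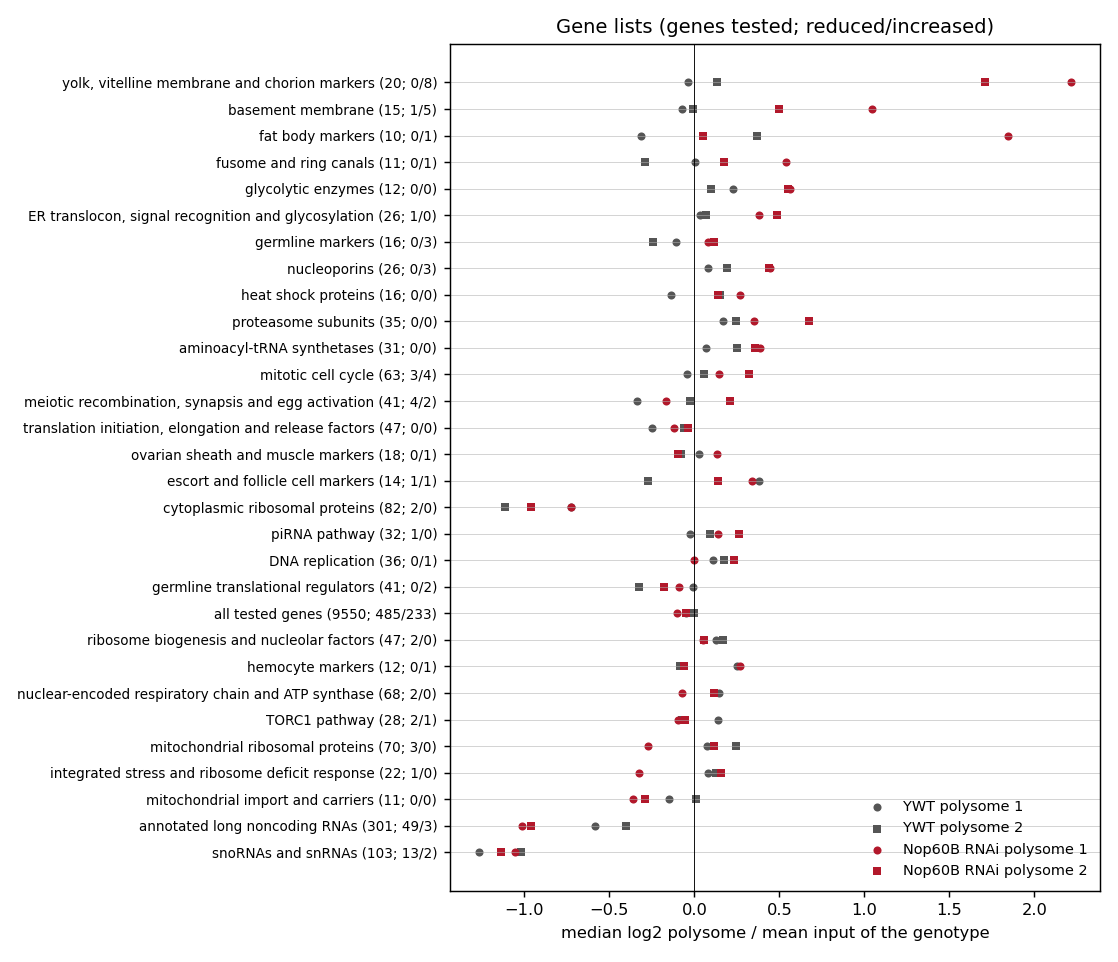
Median log2 ratio of polysome to input of gene lists (rows) in each of the 4 polysome libraries (x axis, log2 units, 1 mark per library). Cytoplasmic ribosomal proteins sit low in every library (-0.73 to -1.11), whereas eggshell and basement membrane genes are near 0 in YWT and above 0 in both Nop60B RNAi libraries (2.21 and 1.71, 1.05 and 0.50).

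Noncoding RNAs were called reduced more often than the 5.08% of all genes, but most had low levels, and many had counts of 0. Their median level was 1.13 CPM for long noncoding RNAs and 0.94 CPM for small nucleolar and small nuclear RNAs. Among all tested genes with a mean of 0.192 to 7.39 CPM, 11.8% were reduced. The 12.6% of the small RNAs given below was close to this share, and the 16.3% of the long noncoding RNAs was above it. A difference apart from level was not tested. Of 301 long noncoding RNAs 49 were reduced (16.3%) and 3 increased, with a fitted median of -1.39. With every group mean raised to at least 3 counts per library the median was -0.24, and with 0.5 CPM added it was -0.38. In both Nop60B RNAi polysome libraries 143 of them had 0 counts. The size of the median depended on how low counts were treated and its direction did not. Of 103 small nucleolar and small nuclear RNAs 13 were reduced (12.6%) and 2 increased, and 66 were at 0 counts in those libraries. Their fitted median of -2.75 turned to 0.41 with the floor of 3 counts and 0.08 with the pseudocount. Of the 30 long noncoding RNAs of at least 10 CPM, 4 were reduced and 1 was increased, and the median was -0.55. A shift below 0 was found in 21 of the 30, against 3150 of 6669 protein-coding genes of that level. lncRNA:CR44417 had a mean of 23.3 ± 1.92 (SD, n = 2) CPM in YWT input, 14.4 ± 1.89 in YWT polysomes, 37.4 ± 0.794 in Nop60B RNAi input and 8.27 and 7.92 in the 2 Nop60B RNAi polysomes (-1.51 ± 0.43; adjusted p = 0.320). lncRNA:CR40469 had 41.6 and 42.2, 3.51 and 1.76, 1158 and 1750, and 567 and 216 CPM (2.13 ± 0.65; adjusted p = 0.328), a call that ended without YWT polysome 2 (1.68).

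Genes encoding a run of at least 5 glutamines were also compared, as polyglutamine proteins are common among RNA regulators. Of 841 tested, 22 were reduced (2.62%) and 29 increased (3.45%), with a median shift of 0.19. Of 8076 without such a run 395 were reduced (4.89%) and 186 increased (2.30%), with a median of -0.02. The genes with a run were longer, with a median coding length of 2913 nt against 1296 nt, and a difference apart from length was not tested.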

How the data were processed

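Polysome sequencing was analysed in 8 of 12 libraries of fly ovaries, 2 each of YWT input, YWT polysomes, Nop60B RNAi input and Nop60B RNAi polysomes. The authors aligned 75-bp single-end reads to dm6 with HISAT2 2.1.0 and counted them with featureCounts 1.4.6 (versions from the submitters' processing notes), and deposited raw counts per FlyBase gene for each library, without normalization. The library kit keeps strand; the strand setting of the counting and the handling of reads with several alignments are not given in the sources used here. Library totals were 8902787 and 8505612 (YWT input), 16946583 and 21626125 (YWT polysomes), 13364747 and 13360006 (Nop60B RNAi input), and 15794780 and 15130319 (Nop60B RNAi polysomes). Reads carried no molecular identifiers, so floors and intervals hold the error of counting alone.

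Low genes were removed by filterByExpr on the 4 groups, and the rest were scaled by TMM and fitted with edgeR 4.0.16 (quasi-likelihood, 4 residual degrees of freedom, no block) in R 4.3.3. The tested contrast was the polysome-to-input difference in Nop60B RNAi minus that in YWT. Following the study's criteria, calls needed a fold of 2 with P under 0.05, and Benjamini-Hochberg adjustment ran over all genes tested. The labels do not say that the 2 libraries of a group came from separate animals beyond their replicate number, so p-values measure the spread between these libraries. Alternatives used DESeq2 1.42.0, limma 3.58.1 (voom), other scalings and filters, a replicate block, all 12 libraries, and each library left out. Fold bounds set zeros to 3 counts per library, and per-library ratios added 0.5 CPM. Medians with a floor raised any group mean below 3 counts per library to that level. The main edgeR fit was also run on simulated counts with known changes, and the alternatives were not.

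Of 17023 genes, 16647 were named from RefSeq release 6 and 376 stayed unnamed; 13648 had a coding sequence. Named genes were, among called genes with a mean of at least 10 CPM, the 12 with the lowest P and the 5 with the largest fold per direction, together with genes the study names and, from each of 36 lists, up to 4 called members by level, or the 2 highest where none was called. Other genes named, among them the examples of coding sequences of up to 300 nt or over 6000 nt, were chosen after their values were seen. Of 654 list entries 602 matched a gene. The genes, lists and comparison were chosen with earlier results of these data known.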

Additional observations from a re-analysis of the deposited data

Results flagged for a closer look

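3 differences between genotypes were marked because both YWT polysome libraries and both Nop60B RNAi polysome libraries lay on opposite sides of 0 in the median log2 ratio of polysome to input. None of these differences was tested in a way that 2 libraries per genotype could settle. The first was the short minus the long class of coding length, at 0.0449 and 0.0972 in YWT and -0.788 and -0.241 in Nop60B RNAi, a difference of -0.59 for which the exact permutation test cannot go below p = 0.333. The second was the basement membrane list, with -0.07 and -0.01 in YWT and 1.05 and 0.50 in Nop60B RNAi, a difference of 0.81 that was not tested. The third was the germline marker list, with -0.11 and -0.25 in YWT and 0.08 and 0.11 in Nop60B RNAi, a difference of 0.27 that was not tested.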

How the results depend on the processing

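The numbers of called genes moved with the processing and with single libraries. Against 485 reduced and 233 increased genes, the count of reductions was 181 with genes of at least 10 CPM only and 266 with all 12 libraries in one fit, and the count of gains was 115 with library totals only and 56 with all 12 libraries. In the fits without 1 library, reductions ranged from 236 (without YWT input 1) to 1167 (without Nop60B RNAi polysome 2) and gains from 116 (without YWT input 1) to 537 (without Nop60B RNAi polysome 2). Without Nop60B RNAi polysome 1 the counts were 982 and 397. Leaving out either of these polysome libraries also gave calls at an adjusted p under 0.05, 215 and 52 without replicate 1 and 474 and 234 without replicate 2, where a lone library is assumed to vary like the other groups. Other size factors (520 and 203), DESeq2 (501 and 220), limma-voom (435 and 182), no filter (614 and 270) and library totals for reductions (715) stayed within 1.5 times. Without a filter, edgeR placed 90 reduced and 46 increased genes under an adjusted p of 0.05. Replicate numbers are not stated to mark one lysate, and input and polysome deviations were uncorrelated (r = 0.0420 in YWT, -0.0111 in Nop60B RNAi). A fit with a replicate block called 306 reduced, 259 of them shared with the 485, and 185 increased. The difference between the short and the long class, -0.57, was between -0.60 and -0.57 in all other settings and between -0.83 and -0.31 without 1 library. A new scaling moves all genes by nearly the same amount, and most other settings refit the same 8 libraries. The narrow range could therefore hardly have been wider, and only the fits without 1 library could move the difference much.

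Of 78 named genes with a call, none changed direction in any setting run. They were picked for a shift of at least 2-fold in the same libraries, so an unchanged direction was likely in advance. Of the 78, 49 lost the call with all 12 libraries, 20 with limma-voom, 8 with the replicate block and 7 to 23 without 1 library. Some genes without a call changed sign. With library totals only, the shift was -0.0643 for alphaTub84B, -0.17 for alphaTub84D, -0.16 for bru1, -0.0605 for IleRS, -0.10 for LManII, -0.0393 for Prosalpha5, -0.21 for Rbfox1 and -0.12 for sesB. With no filter it was -0.0209 for alphaTub84D, -0.00745 for bru1 and -0.0547 for Rbfox1, which was also at -0.0241 with DESeq2's size factors, -0.0247 with DESeq2 and -0.0336 with all 12 libraries. With at least 10 CPM it was 0.0150 for AlaRS and 0.00594 for Nop60B. Without 1 library the shift ran from -0.18 to 0.16 for AlaRS, -0.0725 to 0.44 for alphaTub84B, -0.28 to 0.37 for alphaTub84D, -5.18 to 0.85 for bam, -0.31 to 0.44 for bru1, -0.27 to 0.0301 for egl, -0.10 to 0.32 for LManII, -0.20 to 0.00987 for Nop60B, -0.56 to 0.24 for pAbp, -0.00566 to 0.36 for Prosalpha5, -0.38 to 0.71 for Prosbeta5, -0.42 to 0.50 for Rbfox1 and -0.0814 to 0.20 for sesB. The causes were not tested.

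With 2 libraries per group the smallest difference that passes is large, and depth limits genes below 10 CPM, where a count of 0 in a polysome library is a bound.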
